A study of Mus musculus with 18 samples.

Results

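The receptors for the colony-stimulating factors, the growth factor gene Csf1 and 3 transcription factors of the macrophage lineage were followed across bone marrow-derived macrophages (BMDM) loaded with oxidized low-density lipoprotein (oxLDL). The 9 genes were taken by name from a table of 18668 genes: Csf1r, Csf1, Csf2ra, Csf2rb, Csf2rb2, Csf3r, Spi1, Maf and Cebpb. All 9 were in the table, and all 9 were among the 12838 genes with enough signal to be tested.

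Colony-stimulating factors drive the growth, survival and differentiation of myeloid cells. Csf1r is the receptor tyrosine kinase for CSF1 (M-CSF) and IL-34 and keeps macrophages alive, and Csf1 encodes its main ligand. Csf2ra encodes the ligand-binding chain for GM-CSF, and Csf2rb encodes the common beta chain shared by the receptors for GM-CSF, IL-3 and IL-5. Csf2rb2 is a mouse duplicate of that chain used for IL-3, and Csf3r is the receptor for G-CSF, best known from neutrophils. Spi1 encodes PU.1, the ETS factor that sets up the macrophage programme and drives many CSF receptor genes. Maf encodes c-Maf, a basic leucine zipper factor of mature and anti-inflammatory macrophages, and Cebpb encodes C/EBPβ, a factor of inflammatory and monocytic gene expression.

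The study asked how loss of Treml4, a myeloid receptor of the TREM family, changes lipid-loaded macrophages in a mouse prone to atherosclerosis. Marrow of C57BL6 mice was grown into macrophages for 7 days in medium with added mouse M-CSF. Both genotypes lacked Apoe, the lipoprotein ligand apolipoprotein E, and one lacked Treml4 as well (Apoe-/-/Treml4-/-, here DKO), so that no group carried Apoe and oxLDL was compared within a genotype. Cells received vehicle (PBS, untreated) or oxLDL at 10 or 60 µg/ml, which gave 6 groups with 3 biological replicates each. The series text gives 16 hours of oxLDL, the methods name a longer time, and a treatment label speaks of LPS in place of oxLDL. None of these was resolved.

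Levels are in RPKM (reads per kilobase of transcript, scaled to library depth), which allows genes of different length to be compared within a library. Depth recovered from the table was 39.75 to 54.2 M reads per library, and 3 reads on 1 kb of transcript then gave 0.0553 to 0.0755 RPKM. Treml4 lay between 1.86 and 8.39 RPKM in Apoe-/- libraries and reached 0.0116 RPKM at most in DKO libraries, and Apoe lay between 0.349 and 4.13 RPKM over all libraries. Macrophage markers were present, with summed levels of 6059 to 12403 RPKM over 10 of 10 markers, while 5 of 5 B and T cell markers and 5 of 6 dendritic cell markers stayed under 0.1 RPKM in every library. Stroma markers were detected, 5 of 5, with summed levels of 0.586 to 14.6 RPKM. In 6 libraries, which are replicate 2 of the Apoe-/- and replicate 3 of the DKO groups, Xist stood at 7.25 to 14.5 RPKM and the summed Y-linked genes reached 0.0515 RPKM at most. The other 12 libraries showed the reverse, so 1 animal of each genotype was female by these genes, and animal and sex cannot be told apart within a genotype.

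Csf2rb and Csf2rb2 lie next to each other on chromosome 15 and are near copies, which bears on how their reads were assigned. Their coding sequences (GENCODE M21, build GRCm38) aligned over 2628 bases, of which 95.2% were identical, with a longest identical run of 242 bases. Of all 50-base windows of the Csf2rb coding sequence, 26.2% also occurred in the Csf2rb2 transcript, and of all 150-base windows 6.5% did. The first 120 coding bases of both are shown 5′ to 3′ as an example of how closely the copies match, with the 4 differing bases in capitals.
Csf2rb: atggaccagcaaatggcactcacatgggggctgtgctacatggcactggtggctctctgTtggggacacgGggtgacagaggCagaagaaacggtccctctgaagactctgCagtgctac
Csf2rb2: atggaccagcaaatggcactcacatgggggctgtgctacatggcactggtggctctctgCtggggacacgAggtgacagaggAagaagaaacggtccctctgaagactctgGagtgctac

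Promoters of the members were searched for the core of the PU.1 site, GAGGAA, on both strands. Windows of 300 bases, from 250 bases before the start of the gene to 50 after it, were taken from RefSeq (GRCm38.p6) and were held for 5 of the 9 genes (Csf1, Csf2ra, Csf2rb2, Csf3r and Cebpb). The core occurred in 3 of these 5, all receptor genes, against 28.3% of 32851 promoters. They are printed 5′ to 3′ along the gene, with each core in capitals (TTCCTC where it lies on the other strand).
Csf2ra, chr19:61228369-61228668, minus strand: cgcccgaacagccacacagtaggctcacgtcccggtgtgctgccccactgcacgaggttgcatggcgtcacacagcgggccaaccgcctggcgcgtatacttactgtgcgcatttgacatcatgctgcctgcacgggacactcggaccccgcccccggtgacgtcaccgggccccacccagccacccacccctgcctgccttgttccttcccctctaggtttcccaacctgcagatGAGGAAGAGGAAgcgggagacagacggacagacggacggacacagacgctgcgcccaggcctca
Csf2rb2, chr15:78305672-78305971, minus strand: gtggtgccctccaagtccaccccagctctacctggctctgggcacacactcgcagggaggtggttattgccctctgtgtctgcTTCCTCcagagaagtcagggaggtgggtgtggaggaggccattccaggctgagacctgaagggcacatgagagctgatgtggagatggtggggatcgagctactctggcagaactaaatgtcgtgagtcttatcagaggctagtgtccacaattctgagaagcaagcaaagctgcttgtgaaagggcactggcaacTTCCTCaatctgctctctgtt
Csf3r, chr4:126024409-126024708, plus strand: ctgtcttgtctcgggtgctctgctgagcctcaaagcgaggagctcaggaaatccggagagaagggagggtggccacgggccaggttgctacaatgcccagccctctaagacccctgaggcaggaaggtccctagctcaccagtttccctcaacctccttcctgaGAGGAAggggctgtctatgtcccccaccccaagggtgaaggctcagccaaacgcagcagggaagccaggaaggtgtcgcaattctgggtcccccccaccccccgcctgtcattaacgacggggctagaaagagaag

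Positions were counted from the RefSeq start of each gene. In Csf2ra 2 cores stood side by side, beginning 14 and 8 bases before that start. Csf3r held 1 core, 86 bases before the start. GENCODE M21 begins both genes further upstream, Csf2ra at 61228429 and Csf3r at 126024550, so distances from those starts differ. In Csf2rb2 the cores lay 167 bases before the start and 29 bases after it. Of the other motifs searched, TTGCNNAA (C/EBP, in 10.8% of the same set of promoters) and TGANTCA (AP-1, 7.81%) occurred in none of the 5 windows. GGANNTTCC (NF-kB, 4.26%) occurred in Csf1 and Csf3r, TTCNNNGAA (STAT, 8.3%) in Csf2rb2 and TGCTGA (a MAF core, 19.5%) in Csf3r. Letters of this kind describe the windows and are no measure of binding. Neither the share of windows with a core nor a link of the cores to Spi1 or receptor levels was tested.

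Csf1r was by far the most abundant of the 9 genes. Its mean over all 18 libraries was 496 RPKM, which ranked 110 of the 12838 genes tested. Spi1 followed at 153 RPKM, Csf2rb at 59.2, Cebpb at 37.8, Csf2ra at 27.5 and Csf2rb2 at 20.9 RPKM. Maf averaged 9.11 RPKM, Csf3r 3.57 and Csf1 2.29 RPKM. This order of means was the same in all 6 groups. Csf1r, Spi1 and Csf2rb stood clear of their neighbours in every group, with no overlap of single libraries. Further down, neighbours overlapped in some groups: Csf3r and Csf1 in 3 of 6, Csf2ra and Csf2rb2 in 2, and Cebpb and Csf2ra, Csf2rb2 and Maf, and Maf and Csf3r in 1 each.

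**Figure D1:**
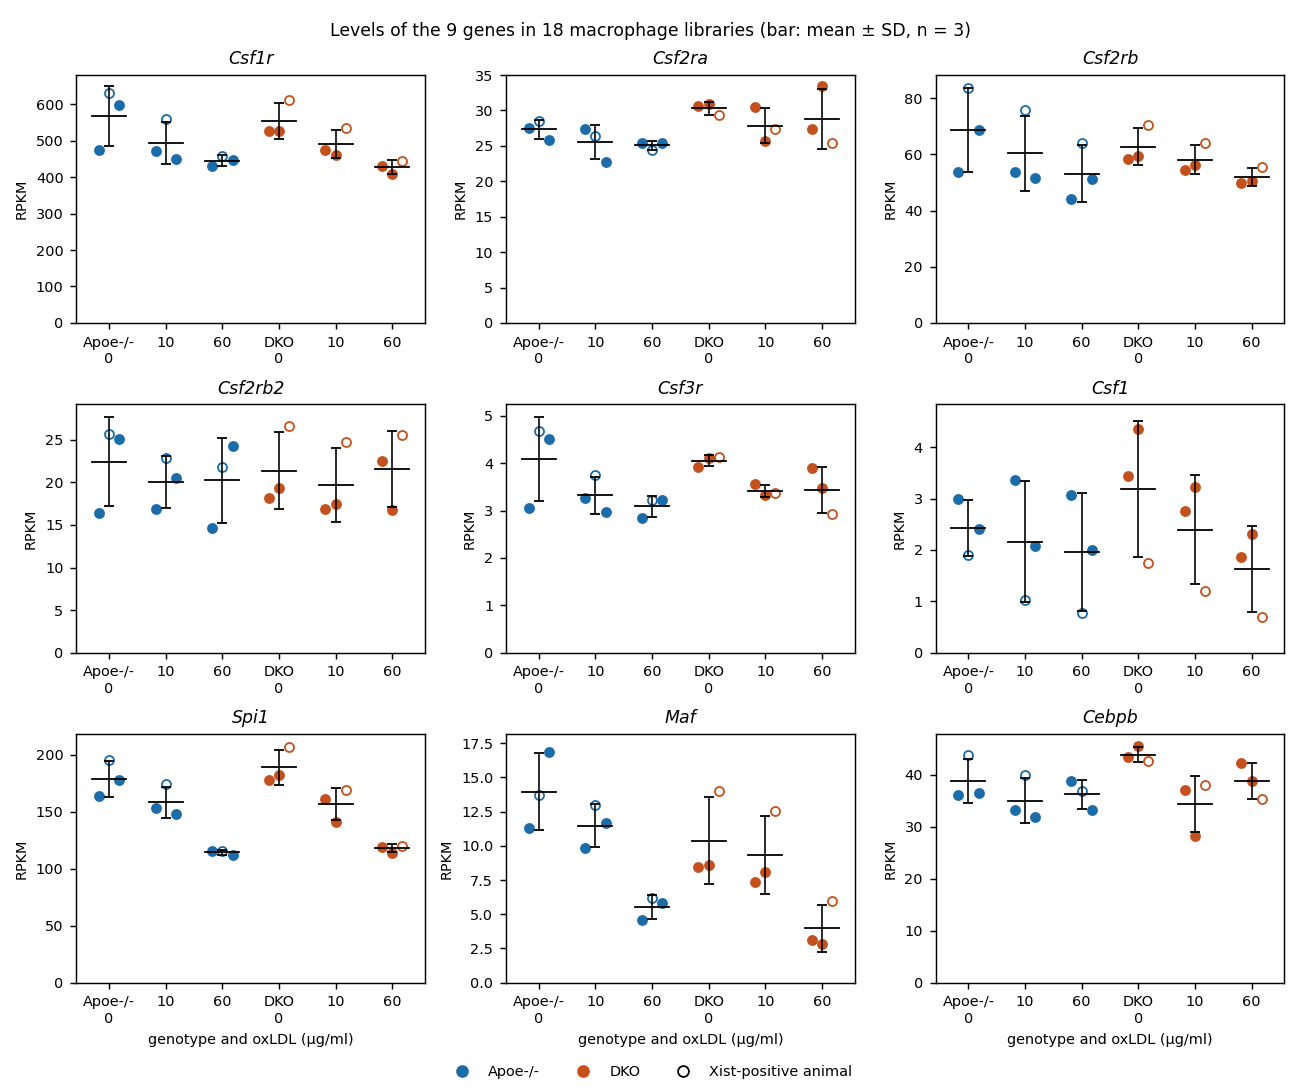
Levels of the 9 genes in all 18 libraries, in RPKM on the vertical axes, by genotype and oxLDL in µg/ml on the horizontal axes. Points are single libraries, open for the Xist-positive animal of each genotype, and bars show the mean ± SD (n = 3). Spi1 at 60 µg/ml lies below every other library of its genotype, while the Csf2rb2 libraries of the 3 treatments overlap in both genotypes.

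To ask how lipid loading touched these genes, oxLDL 60 was first compared with untreated cells in each genotype. Spi1 and Maf fell in both genotypes, Spi1 by 1.56-fold in Apoe-/- and 1.60-fold in DKO cells and Maf by 2.48-fold and 2.64-fold. No member rose, where 7.13% and 4.87% of all genes did. A gene was called when it changed by 1.4-fold or more with a limma adjusted p below 0.05 (Benjamini-Hochberg, over all 12838 genes). By this rule 2 of 9 genes were called lower in Apoe-/- cells, where 6.78% of all genes tested were called lower, and 2 of 9 in DKO cells, where 7.31% were. With no limit on the fold change the counts were 4 of 9, against 30.2% of all genes, and 3 of 9, against 25.9%. These counts took no account of the animal. When animals were fitted as blocks, Csf1 and Csf2rb also had a limma adjusted p below 0.05 in both genotypes. Estimates were below 0 for 9 of 9 genes in Apoe-/- cells and 8 of 9 in DKO cells, against 40.3% and 61.9% of all genes. The median log2 fold change of the 9 genes was -0.36 in Apoe-/- cells and -0.27 in DKO cells, beside medians of 0.06 and -0.06 over all genes. Single libraries did not overlap for 4 genes in Apoe-/- cells and 6 in DKO cells, all lower with oxLDL, where 40.7% and 42.6% of all genes did not overlap in either direction.

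In bulk RNA, fewer cells of a type and less RNA per cell cannot be told apart. Over the 4 monocyte markers measured (Ly6c2, Ccr2 and Cx3cr1 among them) the summed level went from 158 to 187 RPKM in untreated Apoe-/- libraries to 29.3 to 35.9 RPKM with oxLDL 60, and from 125 to 208 RPKM to 22.4 to 39.4 RPKM in DKO libraries. Of these markers 2 of 4 were called lower in Apoe-/- cells and 3 of 4 in DKO cells, and none was at 0. Cx3cr1 made up most of the sum, with means of 161 and 27.8 RPKM in Apoe-/- cells. The summed macrophage markers, Csf1r among them, went from 9267 to 12194 RPKM to 7062 to 9008 RPKM in Apoe-/- libraries and from 8713 to 11281 RPKM to 6059 to 7559 RPKM in DKO libraries. Of the 10 markers 4 were called lower and 1 higher in Apoe-/- cells, and 3 lower and 1 higher in DKO cells. The part of such shifts in the values of the 9 genes was not tested.

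**Figure D2:**
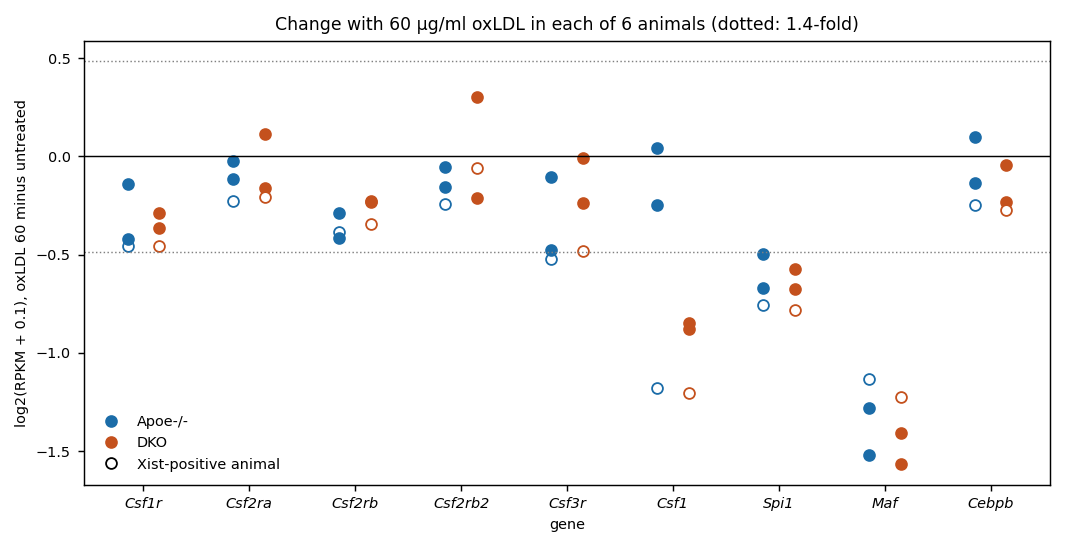
Change from untreated to oxLDL 60 in each of the 6 animals, as the difference of log2(RPKM + 0.1) on the vertical axis, for each of the 9 genes. Points are animals, open where Xist-positive, the solid line marks no change and dotted lines a 1.4-fold change. All 6 animals lie below the lower dotted line for Spi1 and Maf.

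Spi1 (chromosome 2, 91082390 to 91115756, plus strand, GRCm38) stood at 163, 196 and 178 RPKM in untreated Apoe-/- replicates 1 to 3. With oxLDL 10 the values were 153, 174 and 148 RPKM, and with oxLDL 60 they were 116, 116 and 112 RPKM. All oxLDL 60 libraries lay below all others of this genotype, and they differed little among themselves. The log2 fold change at oxLDL 60 was -0.64 (SE 0.083, limma adjusted p = 1.4e-05). In DKO cells Spi1 went from 178, 182 and 207 RPKM when untreated through 161, 141 and 169 RPKM with oxLDL 10 to 119.5, 114 and 120.3 RPKM with oxLDL 60. Here too the groups untreated and oxLDL 60 were far apart, and the oxLDL 10 libraries lay between them. The log2 fold change was -0.68 (SE 0.083, limma adjusted p = 9.0e-06). By an exact permutation test (two-sided) p was 0.10 in each genotype, and groups of 3 cannot go lower. Spi1 fell in 6 of 6 animals, by 0.50 to 0.78 on the log2 scale.

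Maf (chromosome 8, 115682942 to 115707794, minus strand, GRCm38) showed the largest relative loss of the 9 genes. Untreated Apoe-/- libraries held 11.3, 13.7 and 16.9 RPKM, those with oxLDL 10 held 9.83, 13.0 and 11.7 RPKM, and those with oxLDL 60 held 4.58, 6.20 and 5.82 RPKM. In DKO cells the values were 8.48, 8.62 and 14.0 RPKM, then 7.34, 8.07 and 12.6 RPKM, then 3.14, 2.84 and 5.95 RPKM. Replicate 3 of the DKO groups, the Xist-positive animal, stood above the other DKO replicates throughout, and even so its oxLDL 60 value was under every untreated one. Its log2 fold change with oxLDL 60 was -1.31 in Apoe-/- cells (SE 0.26, limma adjusted p = 0.0010) and -1.399 in DKO cells (SE 0.26, limma adjusted p = 0.00068). In single animals it ran from -1.57 to -1.13. The antisense gene Gm15655, not analysed here, overlaps Maf, and whether reads were assigned by strand is not given in the sources used here.

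Csf1r, the kinase that the M-CSF in the medium acts on, was lower at oxLDL 60 by less than the fold limit. Untreated Apoe-/- libraries held 474, 630.2 and 597 RPKM, oxLDL 10 libraries 471, 559.9 and 449 RPKM and oxLDL 60 libraries 429.6, 459 and 446 RPKM. The oxLDL 60 values lay just under the lowest untreated one, and the spread between replicates narrowed from an SD of 82.4 to 14.5 RPKM. The log2 difference was -0.34 (SE 0.10, limma adjusted p = 0.021), which is a 1.27-fold lower level. DKO libraries held 525, 527 and 611 RPKM when untreated, 475, 461 and 534 RPKM with oxLDL 10 and 430.4, 409 and 445 RPKM with oxLDL 60. Untreated and oxLDL 60 libraries of DKO cells did not overlap, and the level was 1.29-fold lower (log2 -0.37, SE 0.10, limma adjusted p = 0.015). All 6 animals had the lower value at oxLDL 60. The gene Hmgxb3 overlaps Csf1r on the opposite strand.

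Among the chains of the GM-CSF receptor, the common beta chain Csf2rb was lower at oxLDL 60 in 6 of 6 animals, by 0.23 to 0.42 on the log2 scale. Its levels in Apoe-/- cells were 53.8, 83.8 and 68.7 RPKM when untreated and 44.0, 64.2 and 51.4 RPKM with oxLDL 60, which overlapped. In DKO cells they were 58.5, 59.4 and 70.5 RPKM against 49.7, 50.7 and 55.6 RPKM, which did not. Neither comparison passed the test, at -0.36 in Apoe-/- cells (SE 0.16, limma adjusted p = 0.11) and -0.27 in DKO cells (SE 0.16, limma adjusted p = 0.26). With the animal as a block the limma adjusted p was 0.00023 and 0.0035 (SE 0.064), with both fold changes under the limit. Without replicate 1 of the untreated Apoe-/- libraries the difference was -0.53 and was called (limma adjusted p = 0.028), and without replicate 2 of the oxLDL 60 libraries it was -0.51 and was called (limma adjusted p = 0.039). Both fits kept the other libraries of that animal, so the groups no longer held the same animals. Within the Apoe-/- animals the changes were -0.29, -0.38 and -0.42, all under the fold limit. The chain that binds GM-CSF, Csf2ra, held 25.9 to 28.6 RPKM in untreated and 24.4 to 25.4 RPKM in oxLDL 60 libraries of Apoe-/- cells. In DKO cells its ranges were 29.3 to 30.9 RPKM and 25.4 to 33.5 RPKM. Its differences of -0.12 and -0.08 did not pass the test (SE 0.092, limma adjusted p = 0.34 and 0.57).

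Csf2rb2, the neighbour of Csf2rb, was lower at oxLDL 60 in 5 of 6 animals and was not called. Whether it differed from Csf2rb in this was not tested. Untreated Apoe-/- libraries held 16.4, 25.7 and 25.1 RPKM against 14.7, 21.7 and 24.2 RPKM with oxLDL 60. In DKO libraries 18.2, 19.3 and 26.6 RPKM stood against 22.4, 16.7 and 25.5 RPKM. The groups overlapped in both genotypes, and the log2 differences were -0.15 and 0.01 (SE 0.22, limma adjusted p = 0.66 and 0.98). Within each library the ratio of Csf2rb2 to Csf2rb lay between 0.30 and 0.47. It was higher at oxLDL 60 than in the untreated library of the same animal in 6 of 6 animals, with means of 0.33 and 0.38 in Apoe-/- cells and 0.34 and 0.41 in DKO cells, while the ranges overlapped. This ratio rests on how reads common to both copies were shared out, which is not given in the sources used here. Summed over both copies, the level differed by -0.31 in Apoe-/- cells (limma adjusted p = 0.19) and -0.19 in DKO cells (limma adjusted p = 0.46), neither called.

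**Figure D3:**
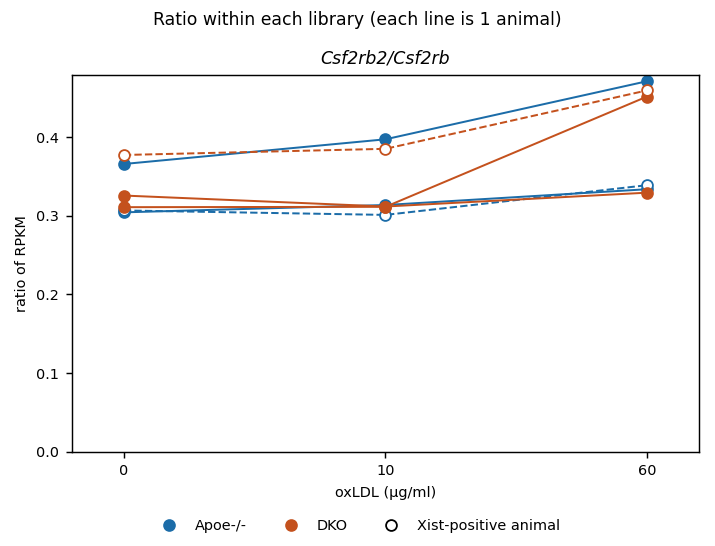
Ratio of Csf2rb2 to Csf2rb within a library (RPKM over RPKM) on the vertical axis at 0, 10 and 60 µg/ml oxLDL (equal steps on the axis, not to scale). Each line is 1 animal, dashed with open points where Xist-positive. The value at 60 µg/ml lies above the untreated one in all 6 animals.

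Csf3r, the G-CSF receptor, was present at a low level. Untreated Apoe-/- libraries held 3.06, 4.685 and 4.51 RPKM against 2.84, 3.23 and 3.21 RPKM with oxLDL 60. In DKO libraries 3.92, 4.11 and 4.13 RPKM stood against 3.89, 3.47 and 2.93 RPKM. Untreated replicate 1 overlapped the oxLDL 60 group in Apoe-/- cells, and no DKO libraries overlapped. The log2 differences were -0.37 in Apoe-/- cells (SE 0.14, limma adjusted p = 0.0499), under the fold limit, and -0.24 in DKO cells (SE 0.14, limma adjusted p = 0.21). Without untreated replicate 1 the Apoe-/- difference was -0.56 and was called (limma adjusted p = 0.0013). That fit kept the oxLDL 60 library of the same animal, and within the Apoe-/- animals the changes were -0.10, -0.52 and -0.48. Summed markers of neutrophils and their precursors, 10 of 10 measured, lay between 32.1 and 50.8 RPKM in Apoe-/- libraries and between 34.6 and 86.5 RPKM in DKO libraries. Ly6g, the defining neutrophil marker, stayed under 0.1 RPKM in all 18 libraries, and of the 9 markers tested none was called at oxLDL 60 in either genotype. Their part in the Csf3r level was not tested.

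Csf1 was the lowest and most variable of the 9 genes, from 0.698 to 4.35 RPKM, or about 180 to 1130 reads. Untreated DKO libraries held 3.45, 4.35 and 1.74 RPKM, those with oxLDL 10 held 2.76, 3.23 and 1.20 RPKM, and those with oxLDL 60 held 1.87, 2.32 and 0.698 RPKM. Each DKO animal stepped down at each dose, but the animals began so far apart that the groups overlapped. The log2 difference at oxLDL 60 was -0.98 without regard to the animal (SE 0.52, limma adjusted p = 0.19), which was not called. With the animal as a block the same difference had an SE of 0.16 and was called (limma adjusted p = 0.00014), which makes 3 of 9 genes called in DKO cells at oxLDL 60, where 1015 of 12838 genes were then called lower. Fitting Xist status instead also gave a call (limma adjusted p = 0.0018), as did leaving out the Xist-positive libraries, at -0.86 (limma adjusted p = 0.012). The latter rested on replicates 1 and 2 of each DKO group.

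In Apoe-/- cells Csf1 held 2.99, 1.90 and 2.40 RPKM when untreated, 3.37, 1.02 and 2.08 RPKM with oxLDL 10 and 3.08, 0.782 and 2.00 RPKM with oxLDL 60. Replicate 1 kept its level, replicate 3 lost little and replicate 2, the Xist-positive animal, fell by 1.18 on the log2 scale. The difference at oxLDL 60 was -0.46 (SE 0.52, limma adjusted p = 0.55). With the animal as a block its limma adjusted p was 0.031 at a fold change just under the limit. Markers of stroma, a known source of CSF1, followed the same order of animals within each genotype, but not across the genotypes. Their sum over 5 of 5 markers was 14.1, 0.939 and 9.31 RPKM in untreated Apoe-/- libraries and 3.90, 5.55 and 1.43 RPKM in untreated DKO libraries. With oxLDL 60 it was 13.6, 0.586 and 7.99 RPKM and 3.64, 3.87 and 0.921 RPKM. None of the 5 was called at either dose, and their part in the Csf1 level was not tested. Whether the genotypes differ in the response of Csf1 to oxLDL 60 was tested by the interaction. Without regard to the animal it was -0.52 (SE 0.74, limma adjusted p = 0.82). Blocking on animals left this estimate at -0.52 and lowered its SE to 0.23. It was still not called (limma unadjusted p = 0.037, limma adjusted p = 0.27).

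Cebpb did not pass the test at either dose. Its values at oxLDL 60 were 38.7, 36.8 and 33.2 RPKM in Apoe-/- cells, where untreated libraries held 36.15, 43.7 and 36.4 RPKM. In DKO cells untreated libraries held 43.5, 45.5 and 42.6 RPKM and oxLDL 60 libraries 42.2, 38.8 and 35.2 RPKM. The first pair of groups overlapped and the second stood just apart. The log2 differences were -0.09 and -0.18 (SE 0.11, limma adjusted p = 0.58 and 0.27). The gene Tmem189 overlaps Cebpb on the opposite strand.

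At oxLDL 10 no member was called in either genotype, where 2.79% and 2.26% of all genes were. Estimates of the log2 difference were below 0 for 9 of 9 genes in both, from -0.29 to -0.10 in Apoe-/- cells and from -0.41 to -0.11 in DKO cells, while 33.3% and 42.4% of all genes had an estimate below 0. By limma 0 members had an unadjusted p under 0.05 in Apoe-/- cells and 2 in DKO cells, Spi1 and Cebpb. Cebpb in DKO cells went from 43.5, 45.5 and 42.6 RPKM to 37.0, 28.2 and 37.9 RPKM, which did not overlap, at -0.36 (SE 0.11, limma adjusted p = 0.097). Spi1 in DKO cells differed by -0.27 (SE 0.083, limma adjusted p = 0.090). With the animal as a block these limma adjusted p-values were 0.019 and 0.011, with both fold changes under the limit. In Apoe-/- cells Maf had a limma adjusted p of 0.043 in the blocked fit, also under the fold limit.

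Between the doses, Maf was called lower at oxLDL 60 than at oxLDL 10 in both genotypes, by -1.04 in Apoe-/- cells (SE 0.26, limma adjusted p = 0.013) and -1.25 in DKO cells (SE 0.26, limma adjusted p = 0.0037). This made 1 of 9 genes in each, where 3.54% and 3.74% of all genes were called lower. Without replicate 1 of the Apoe-/- oxLDL 60 libraries the former was not called, at -0.91 (limma adjusted p = 0.062). Spi1 was lower at the higher dose by 0.47 in Apoe-/- cells and by 0.41 in DKO cells on the log2 scale (limma adjusted p = 0.00091 and 0.0027), with fold changes of 1.38 and 1.33. With no fold limit 2 of 9 genes passed in each genotype, against 13.5% and 15.6% of all genes. Spi1 passed the fold limit in Apoe-/- cells without replicate 1 or without replicate 3 of the oxLDL 10 libraries, at -0.49 and -0.51. The oxLDL 60 libraries of those animals stayed in, and within the Apoe-/- animals the differences were -0.40, -0.59 and -0.41. Csf1 was lower in 6 of 6 animals. With the animal as a block it was called in DKO cells, at -0.57 (limma adjusted p = 0.016), which makes 2 of 9 genes there, where 573 of 12838 genes were then called lower. It was not called without the block (limma adjusted p = 0.52), with Xist status fitted (limma adjusted p = 0.067) or without the Xist-positive libraries (limma adjusted p = 0.18). The comparisons with untreated cells and between doses share libraries.

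Loss of Treml4 was compared at each treatment, DKO against Apoe-/-. No member was called when untreated, with oxLDL 10 or with oxLDL 60, where 0.21%, 0.0857% and 0.125% of all genes were called. By limma 0 members had an unadjusted p under 0.05 in any of these 3 comparisons. The widest estimates were those of Maf, lower in DKO cells by 0.45, 0.33 and 0.53 on the log2 scale at the 3 treatments (SE 0.26, limma adjusted p = 0.39, 0.68 and 0.64). At each treatment the Xist-positive DKO library lay within the range of the Apoe-/- libraries and the other DKO libraries below it. Without the Xist-positive libraries Maf was called lower in DKO cells when untreated, at -0.68 (limma adjusted p = 0.029), and with oxLDL 60, at -0.77 (limma adjusted p = 0.047), and not with oxLDL 10 (limma adjusted p = 0.22), while 308, 74 and 110 of 12838 genes were called in these 3 comparisons. Each of these rested on DKO replicates 1 and 2 against Apoe-/- replicates 1 and 3. Fitted with Xist status, Maf was called at none of the 3 treatments (limma adjusted p = 0.13, 0.36 and 0.23). The limma unadjusted p of Maf was 0.021, 0.078 and 0.0072 in that fit. With the animal as a block it was 0.053, 0.14 and 0.023, and Maf was not called.

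Csf2ra was the single member whose libraries did not overlap between untreated cells of the genotypes, with 25.9 to 28.6 RPKM in Apoe-/- and 29.3 to 30.9 RPKM in DKO cells, while 19.6% of all genes did not overlap there. With oxLDL 10 and 60 no member was without overlap, where 12.1% and 16.5% of all genes were. The difference was 0.15 (SE 0.092, limma adjusted p = 0.40). Csf1r differed by -0.02, -0.01 and -0.06 on the log2 scale at the 3 treatments (SE 0.10), which at 2 SE leaves room for shifts of about 0.2 either way. The interaction of genotype and oxLDL was called for 0 of 9 genes at either dose, with 0 members at an unadjusted p under 0.05 by limma. Of all genes 0% were called at oxLDL 10 and 0.0156% at oxLDL 60. This fit took no account of the animal. With the animal as a block, Csf1 at oxLDL 60 had a limma unadjusted p of 0.037 and was not called (limma adjusted p = 0.27).

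Several members followed the animal across all 3 treatments. Csf1 was lowest in the Xist-positive library of 6 of 6 groups, at 0.698 to 1.90 RPKM against 1.87 to 4.35 RPKM in the other libraries. Csf1r and Csf2rb were highest there in 6 of 6 groups. Among all genes tested 7.28% were lowest and 2.51% highest in the Xist-positive library of every group. Csf2rb2, Maf and Spi1 were highest there in 5 of 6 groups, as 4.03% of all genes were. As the Xist-positive libraries come from 1 animal of each genotype, these counts describe 2 animals and carry no test. What sets these animals apart was not tested.

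**Figure D4:**
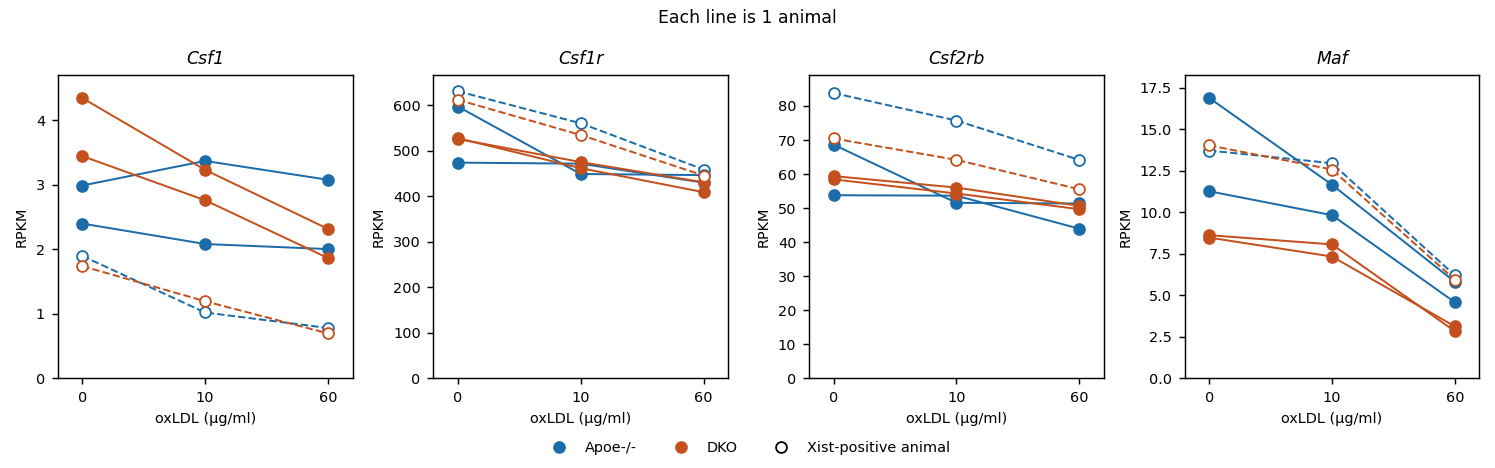
Levels of Csf1, Csf1r, Csf2rb and Maf in RPKM on the vertical axes at 0, 10 and 60 µg/ml oxLDL (equal steps on the axis, not to scale). Each line is 1 animal, dashed with open points where Xist-positive. The dashed lines lie lowest for Csf1 and highest in their genotype for Csf1r and Csf2rb.

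Other genes of the same pathways were read from 3 lists. Of 7 ligands and further receptor chains 6 were in the table and 2 were tested, Csf2 and Il3ra. Il34, the second ligand of Csf1r, reached at most 0.108 RPKM, and Csf3, Il5 and Il5ra stayed under 0.1 RPKM in all libraries. Il3ra, the ligand-binding chain for IL-3, averaged 9.73 to 10.5 RPKM in the 6 groups and was not called. Csf2, which encodes GM-CSF, was called lower at both doses in both genotypes and is named here after its values were seen. It rested on few reads, worked back from RPKM with the recovered depth and a length of 1034 bases chosen to give whole reads. They were 9, 9 and 9 in the untreated Apoe-/- libraries and 2, 0 and 0 with oxLDL 60, and 27, 35 and 10 against 1, 2 and 1 in DKO libraries. Scaled to equal depth, the untreated level was 14.6 times that with oxLDL 60 in Apoe-/- cells (95% exact interval 3.67 to 127) and 18.7 times in DKO cells (7.00 to 70.5). These intervals cover counting error only and take the worked-back reads as given.

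Of 25 genes of signalling below the receptors, 25 were tested. At oxLDL 60 none was called higher, 10 fell in Apoe-/- cells and 9 in DKO cells, and at oxLDL 10 the counts that fell were 3 and 4. Of all genes 6.78% and 7.31% were called lower at oxLDL 60, and 2.04% and 1.69% at oxLDL 10. The median log2 fold change at oxLDL 60 was -0.21 and -0.28, beside 0.06 and -0.06 over all genes. Socs3, a feedback inhibitor of JAK and STAT signalling, fell from 14.4 ± 4.0 RPKM (SD, n = 3) to 0.921 ± 0.272 RPKM in Apoe-/- cells and from 16.5 ± 3.3 to 1.19 ± 0.11 RPKM in DKO cells (log2 fold change -3.82 and -3.68, SE 0.20, limma adjusted p = 6.6e-10 and 1.2e-09). Jak2, the kinase bound to the beta chain, fell from 18.5 ± 2.4 to 8.18 ± 0.17 RPKM and from 18.1 ± 1.4 to 8.48 ± 0.14 RPKM (-1.16 and -1.09, SE 0.081). Ptpn6, the phosphatase SHP-1 that restrains CSF receptor signalling, fell by 0.98 and 1.09 on the log2 scale, from 145 to 73.0 RPKM and from 140.3 to 65.8 RPKM. Both activating and restraining genes were among those that fell.

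Of 25 other transcription factors of the macrophage lineage 24 were tested. In Apoe-/- cells 4 rose and 6 fell at oxLDL 60, and in DKO cells 3 rose and 6 fell. Of all genes 7.13% rose and 6.78% fell in Apoe-/- cells, and 4.87% rose and 7.31% fell in DKO cells. The median log2 fold changes of the 24 factors were -0.22 and -0.33, beside 0.06 and -0.06 over all genes. Cebpa, the C/EBP family member that primes myeloid progenitors, rose from 15.4 ± 2.1 RPKM (SD, n = 3) to 37.0 ± 1.2 RPKM in Apoe-/- cells and from 17.5 ± 0.1 to 35.3 ± 2.9 RPKM in DKO cells (log2 fold change 1.26 and 1.01, SE 0.10, limma adjusted p = 8.1e-08 and 1.3e-06), while Cebpb was not called. Cebpd, another of that family, fell from 5.17 to 2.15 RPKM and from 4.80 to 2.28 RPKM (-1.23 and -0.99). Id2, an inhibitor of basic helix-loop-helix factors, rose by 1.35 and 1.23. Bach1, a repressor sensitive to heme, rose by 0.51 in Apoe-/- cells and lay just under the fold limit in DKO cells, at 0.48. Mef2c fell by 1.00 and 0.97, and Nr1h3, which encodes the sterol sensor LXRα, fell by 1.01 in Apoe-/- cells and by 0.91 in DKO cells. Myc fell by 1.01 in DKO cells and was not called in Apoe-/- cells, a difference that the interaction did not call.

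**Figure D5:**
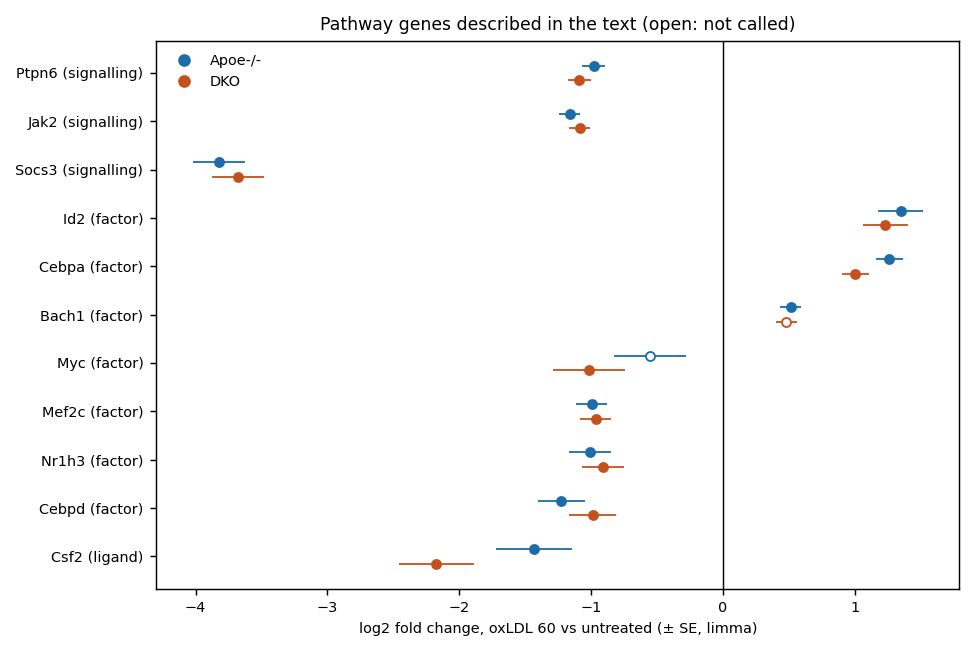
Log2 fold change of oxLDL 60 against untreated cells on the horizontal axis, with its SE from limma, for the 11 list genes described in the text. Filled points are called and open points are not. Socs3 lies farthest to the left, at -3.82 and -3.68, and Id2 farthest to the right.

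As a description over the 18 libraries, which share 6 animals, the genes with the pattern most like each member were listed by Pearson's r of log2(RPKM + 0.1). Spi1 ran closest to Cxcl16 (r = 0.99), Nfkbia and Vasp, and Maf to Txnip (r = 0.97), Cysltr1 and Zfp36l1. Csf1r ran closest to Mitf (r = 0.98), Pik3r5 and Pbxip1, and Csf2rb to the MHC class II genes H2-Ab1 (r = 0.95) and H2-Aa beside a symbol that spreadsheet software had turned into a date. Csf1 ran closest to Spp1 (r = 0.94), which encodes osteopontin, and to Rbfox2 and Ugcg. Csf3r had its highest value with Adcy7 (r = 0.89), Csf2rb2 with Rere (r = 0.87), Csf2ra with Col11a2 (r = 0.84) and Cebpb with E4f1 (r = 0.81). Between members, r was highest for Csf1r with Csf2rb and with Spi1 (both 0.89) and lowest for Csf1 with Csf2rb2 (-0.65). Csf1r and its ligand gene Csf1 had r = -0.04.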

How the data were processed

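RNA of 18 BMDM libraries was compared. The authors aligned the reads with STAR (build mm10, per the submitters' processing notes) and deposited 1 table of RPKM values. As the values are not counts, no count test was run. Groups and replicate numbers came from the sample labels. Values were taken as log2(RPKM + 0.1), which understates the fold changes of low genes, and genes that reached 0.1 RPKM in 3 or more libraries were fitted with 6 group means (limma 3.58.1, lmFit and eBayes with a trend, R 4.3.3), tested on simulated data first. The members, lists and alternatives were chosen with earlier results of these data known. Besides the members, the list genes named were up to 3 higher and 3 lower per list with the largest called changes at oxLDL 60 and a mean of at least 1 RPKM, and any called in other comparisons; some of these are not reported here.

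Depth came from the steps of low values, of which 91.2% (of 14199) were whole reads within 0.05. Within a genotype, libraries of the same number deviated together in 18 of 18 pairs (r 0.18 to 0.69). Pairs with r over 0.1 were 11 of 36 for other numbers within a genotype and 9 of 27 for the same number across genotypes. Numbers were therefore taken as animals within a genotype and used as a block (fixed effects, or duplicateCorrelation between genotypes) in an alternative. Other alternatives were the pseudocount, filter, rescaling, samples fitted, Xist, the fold limit and leaving out each replicate. Python 3.11.15 and matplotlib 3.10.9 were used for depth and plots.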

Additional observations from a re-analysis of the deposited data

How the results depend on the processing

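Of 810 recomputed member values, 780 kept their direction and side of the limits, 16 passed them only then, 1 lost its call and 13 changed direction, all 13 by leaving out 1 library. Spi1 and Maf at oxLDL 60 were called under every alternative run in both genotypes. Without the limit on the fold change 4 members were called at oxLDL 60 in Apoe-/- cells, and 2 between doses in each genotype. With the animal as a replicate block, 3 members were called in DKO cells at oxLDL 60 and 2 between doses (Csf1 added). No other call of a member changed with the pairing, though more limma adjusted p-values were under 0.05 at changes below the fold limit. Without Xist-positive libraries 1 member, Maf, was called between genotypes when untreated and 1 with oxLDL 60, where all-gene counts also rose most (27 to 308 and 16 to 74). Leaving out single replicates gave 2 to 4 members called at oxLDL 60 in Apoe-/- cells (4 without untreated replicate 1) and 0 to 2 between doses (2 without oxLDL 10 replicate 1 or 3, 0 without oxLDL 60 replicate 1). The log2 differences that changed sign there ranged as follows. Csf1 ran from -0.67 to 0.14 at oxLDL 10 and from -0.87 to 0.055 at oxLDL 60 in Apoe-/- cells, from -0.78 to 0.0068 at oxLDL 10 in DKO cells, and from -0.61 to 0.34 between doses in Apoe-/- cells. Csf2rb2 ran from -0.36 to 0.063 at oxLDL 60 in Apoe-/- cells, and from -0.29 to 0.049 and -0.12 to 0.18 at oxLDL 10 and 60 in DKO cells. Maf ran from -0.39 to 0.083 at oxLDL 10 and Csf2ra from -0.20 to 0.0020 at oxLDL 60 in DKO cells. Each left-out library is assumed to vary like the rest. The other libraries of its animal stayed in, so the groups compared no longer held the same animals. Rescaling by the median ratio shifted oxLDL 60 against untreated by -0.06 in Apoe-/- and 0.06 in DKO cells for the median gene and changed no member call. Depth limits Csf2, not the members, whose lowest count was about 180 reads. The cause of these changes was not tested.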
